A study of Rattus norvegicus with 288 samples.

Results

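The heat shock proteins were 10 listed genes: Hspa1a, Hsph1, Dnajb1, Hspb1, Hspa8, Hsp90aa1, Bag3, Dnaja1, Hspe1 and Hspd1. They were found by gene symbol on the Affymetrix rat genome array, and for each gene the brightest probe set in each tissue was used. Of the 10, 8 had at least 1 probe set annotated to them alone, out of 14218 genes with such a probe set among 31099 probe sets. Hspa8 and Hsp90aa1 were reached only through probe sets that the annotation shares with another gene. These were 1398240_at, annotated to Haus8l2 and Hspa8, and 2 annotated to Hsp90aa1-ps17 and Hsp90aa1, called Hsp90aa1 probe set A (1372701_at, the brighter of them in each tissue) and B (1388850_at). The last shared probe set, 1368247_at, is annotated to Hspa1b and Hspa1a, which are near-identical copies, so values given for either of these genes may include the other. Shared probe sets are reported beside the 8 genes and are not counted among them.

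The study dosed 96 male Sprague-Dawley rats, 8 weeks old, and profiled heart, kidney and liver of each. Each rat received a 30 minute intravenous infusion of dextrose in water (D5W, the vehicle) or of oxaliplatin at 15 mg/kg, a platinum compound that binds DNA. The infusion was followed by an oral dose of sterile water, the mixed vehicle F68/PG/PEG400 (F68 below), sunitinib at 5 mg/kg or sorafenib at 25 mg/kg, and tissues were taken at 1, 6 or 24 h. Sunitinib and sorafenib are inhibitors of receptor tyrosine kinases, sunitinib was compared with water and sorafenib with F68, and each of the 72 groups held 4 rats. The rats given water or sunitinib were dosed on an earlier day than those given F68 or sorafenib, so oral vehicle and dosing day cannot be told apart, and neither can time after dosing and time of day. All values are log2 of the deposited normalized signal. "Called" means an adjusted p under 0.05, from limma fits across all genes of a tissue with Benjamini-Hochberg adjustment, and differences carry their standard error (SE).

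Heat shock proteins are molecular chaperones that keep other proteins folded or return unfolded ones to shape. Several are transcribed at a low rate in resting cells and strongly when unfolded proteins free heat shock factor 1, which binds repeats of a short element in their promoters. The Hsp70 proteins do the folding with ATP, DnaJ proteins bring them clients, nucleotide exchange factors such as Hsph1 and Bag3 reset them, and Hspe1 and Hspd1 form the folding chamber of mitochondria.

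The element was looked up in the RefSeq promoter windows of the rat assembly GRCr8, which run from 250 bases before to 50 bases after each annotated start site. A match was GAANNTTC or TTCNNGAA, forms that read the same on both strands, and 5305 of 33469 windows (15.9%) held at least 1. Windows were given for 9 of the 10 listed genes, all but Hsp90aa1, and 8 of the 9 held a match, all but Hspa1a. A run of 3 alternating GAA and TTC units, each 2 bases from the next, was in 267 windows (0.798%) and was found in 5 of the 9, those of Hsph1, Hspa8, Dnaja1, Hspe1 and Hspd1. The stretches below hold the matches nearest before the start site in genes whose RNA is compared here. Not printed are the second Dnajb1 match and the Dnaja1 run, which lie 18 to 25 and 10 to 22 bases after the start, and a second overlapping Hspa8 pair at positions -213 to -201. Sequences run 5′ to 3′ on the gene's strand with matches in capitals, and runs of capitals longer than 8 bases are overlapping matches.
Hsph1: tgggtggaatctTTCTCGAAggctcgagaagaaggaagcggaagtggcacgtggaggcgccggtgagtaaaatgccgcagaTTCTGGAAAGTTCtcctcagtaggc
Dnajb1: tcgggaggggcgGAAGGTTCtgg
Hspb1: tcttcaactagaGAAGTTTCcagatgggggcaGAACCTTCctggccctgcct
Hspa8: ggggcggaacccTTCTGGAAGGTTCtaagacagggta
Bag3: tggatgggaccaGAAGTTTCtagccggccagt
Dnaja1: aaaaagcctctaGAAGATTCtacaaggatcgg
Hspe1: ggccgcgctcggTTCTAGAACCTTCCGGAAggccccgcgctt
In GRCr8 the Hsph1 stretch is chr12:10427251-10427356 on the plus strand, 117 to 12 bases before the start site, and that of Dnajb1 is chr19:41431142-41431164 on the minus strand, 23 to 1 bases before it. The Hspb1 stretch is chr12:26432391-26432442 on the minus strand, 141 to 90 bases before the start, and the Hspa8 stretch is chr8:50080447-50080483 on the plus strand, 67 to 31 bases before it. The Bag3 stretch is chr1:192533316-192533347 (plus strand, 144 to 113 bases before) and the Dnaja1 stretch chr5:60638211-60638242 (plus strand, 193 to 162 bases before). The Hspe1 stretch, chr9:64084250-64084291 on the plus strand, lies 77 to 36 bases before its start. Hspe1 and Hspd1 are arranged head to head, and bases 64084250 to 64084287 of this same stretch, read on the minus strand, lie 250 to 213 bases before the Hspd1 start. A match is a description of letters in a window and was not tested for binding. Only the exact letters were searched, in 1 window per gene. Elements that depart from them or lie outside the window were not counted, so a window without a match does not show that the gene lacks the element.

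**Figure D1:**
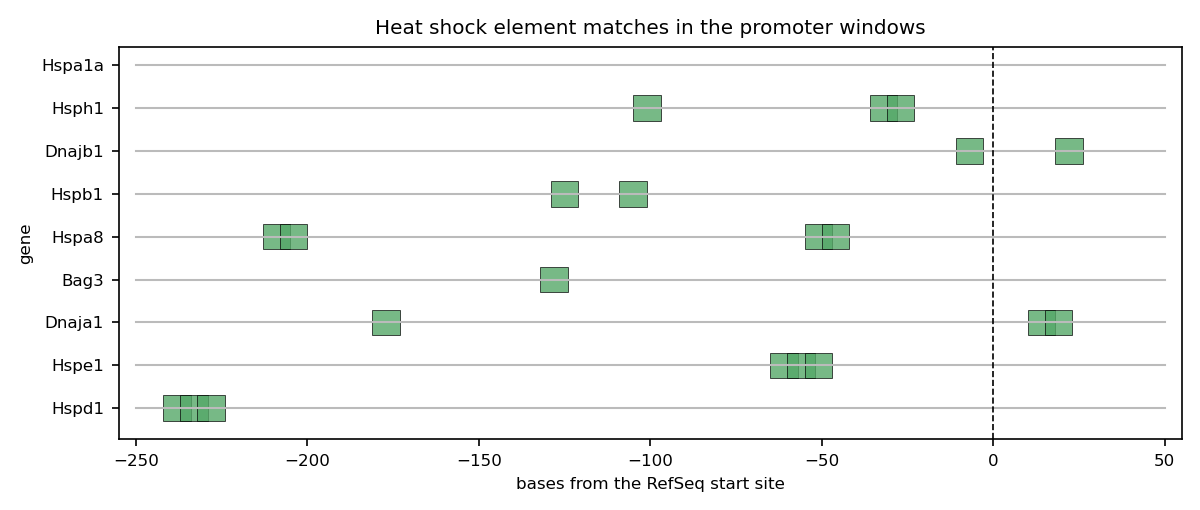
Positions of heat shock element matches in the promoter windows of the 9 listed genes with a window, in bases from the annotated start site (250 before to 50 after). Each mark is 1 match. 8 of the 9 windows hold at least 1, and no exact match was found in the Hspa1a window. Inexact elements were not searched.

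All 8 genes and all 4 shared probe sets passed the filter on low values (log2 over 6 on at least 4 arrays) in each tissue. The 8 genes ranged widely in how much they varied. Among the genes of the mitochondrial chamber, Hspe1 lay between 12.91 and 13.21 over the 96 heart arrays, and Hspd1 between 12.77 and 13.12. Hspa1a, the stress-inducible Hsp70, lay between 7.97 and 11.09 in heart, between 8.91 and 11.80 in kidney and between 6.34 and 9.70 in liver. Its mean placed it at percentile 73.8 of genes in heart and 39.5 in liver. Hspb1, a small heat shock protein that holds unfolded proteins without ATP and is abundant in muscle, was at percentile 97.6 in heart, 66.8 in kidney and 50.3 in liver. Levels between tissues are given as a description because the arrays of a tissue shared a median that differed from that of the others (6.63 to 6.69 in heart, 7.32 to 7.81 in kidney, 6.66 to 6.78 in liver).

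Before testing, 2 arrays were set aside because their markers went against their tissue label. In liver, replicate 1 of the sorafenib group (after D5W, at 24 h) had a median of 13.09 over kidney markers and 6.41 over liver markers. In kidney, replicate 4 of the group dosed the same way had 14.44 over liver markers and 7.55 over kidney markers, and its Umod, a marker of kidney tubules, was 6.40 against 14.48 to 14.51 on the others of its group. On the remaining 286 arrays the median over each tissue's own markers lay between 12.72 and 14.83, and that over the other tissues' markers between 5.01 and 10.27. Another array, kidney 1 h oxaliplatin then sunitinib replicate 1, had the highest kidney array median, 7.81, with its spiked hybridization control BioB at 4.69 where the lowest of the other kidney groups at 1 h was 7.18, and is named where it touches a result. These are bulk tissues, so fewer cells of a type and less RNA per cell cannot be told apart.

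Of the 72 tests of oxaliplatin against D5W over the 8 genes (3 tissues, 3 times), 4 were called and all 4 were higher with oxaliplatin, where 0.866% to 20.6% of all genes were called in the 9 comparisons. Of the 72 tests of sorafenib against F68 after D5W, 9 were called and all 9 were lower with sorafenib, where 0% to 67.3% of all genes were called. Of the 72 tests of sunitinib against water after D5W none was called by limma, with 5 at an unadjusted p under 0.05, all in heart, where 10% of all genes were called at 1 h, 0% at 6 h and 25.4% at 24 h. Among the rats given both vehicles, 11 of 48 tests between times were called, 9 lower and 2 higher at the later time, where 1.98% to 51.8% of all genes were called.

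**Figure D2:**
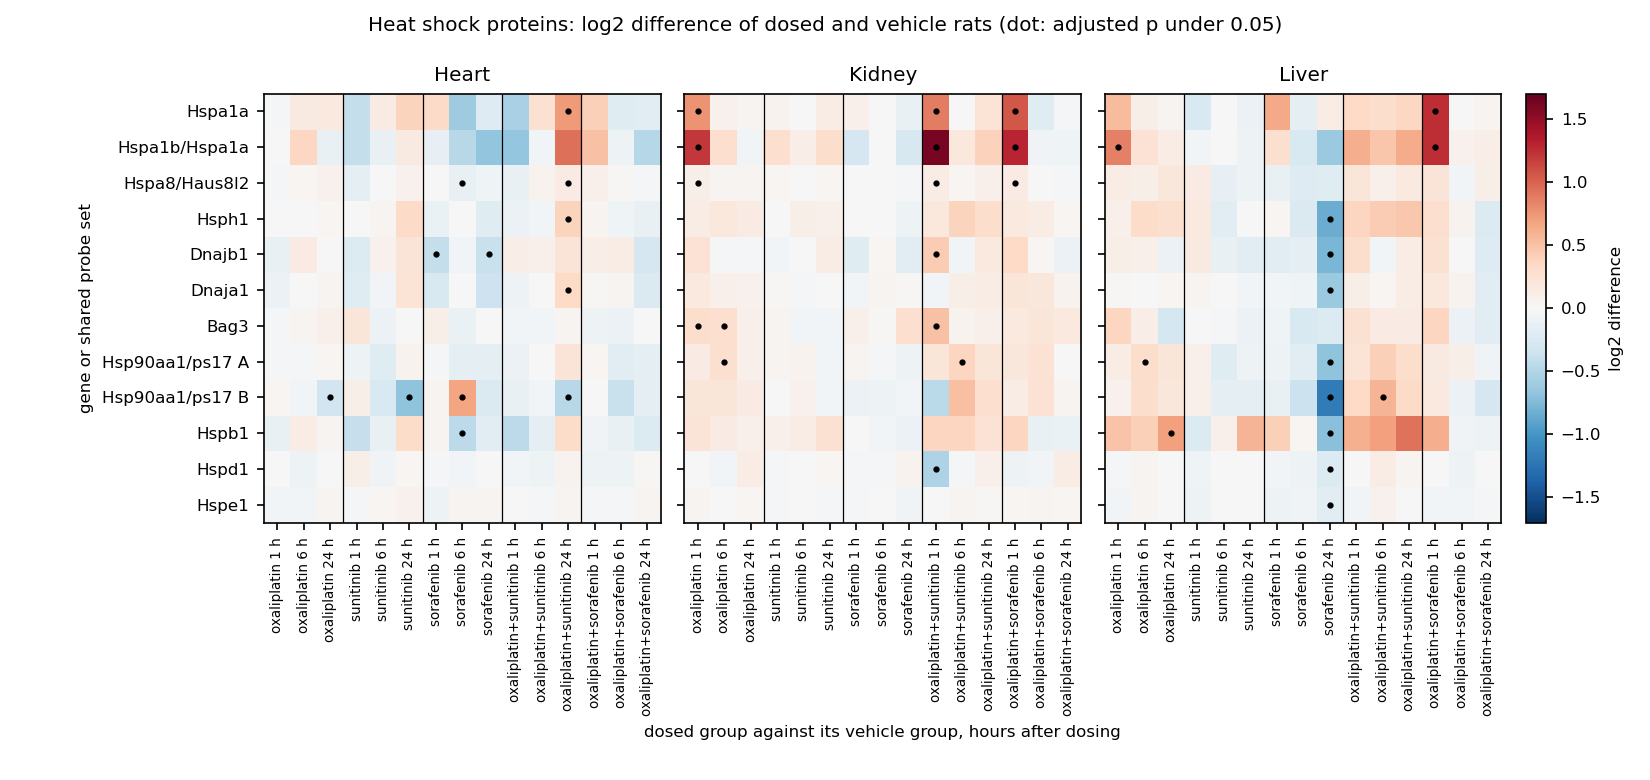
Log2 differences of the 8 genes and 4 shared probe sets (rows) in heart, kidney and liver for the dosed against vehicle comparisons (columns), in log2 units by colour. A dot marks an adjusted p under 0.05. Among the dots are Hspa1a and Bag3 in kidney at 1 h, where they are higher, and 6 of the 8 genes in liver at 24 h after sorafenib, where they are lower as deposited (Hspe1 and Hspd1 change sign when arrays are centred).

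The first question was what oxaliplatin did to the chaperones within hours of the infusion. In kidney at 1 h, Hsp70 transcripts and Bag3 were higher with oxaliplatin, while the other 6 genes were not called. 2 of the 8 genes were called, where 9.42% of all genes were, and the median difference of the 8 was 0.20 against -0.02 over all genes. Hspa1a ranged from 9.77 through a median of 10.30 to 11.45 in the 8 oxaliplatin rats and from 9.20 through 9.69 to 10.23 in the 8 D5W rats. The groups overlapped, with the highest values in oxaliplatin rats. The difference was 0.76 (SE 0.18, 1.7-fold, adjusted p = 0.00173). On the shared Hspa1b and Hspa1a probe set the oxaliplatin rats ranged from 10.21 through 10.95 to 12.45 and the D5W rats from 9.07 through 9.75 to 10.64. These groups overlapped as well, and the difference was 1.20 (SE 0.23, 2.3-fold, adjusted p = 9.35e-05).

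Bag3, a co-chaperone that releases clients from Hsp70 and hands them to autophagy, ranged from 11.02 through 11.12 to 11.37 with oxaliplatin and from 10.56 through 10.87 to 11.16 with D5W. The oxaliplatin rats sat in the upper part of the joint range, and the difference was 0.30 (SE 0.09, 1.23-fold, adjusted p = 0.0148). The Hspa8 probe set, for the constitutive Hsp70, was higher by 0.10 (adjusted p = 0.00529). The DnaJ partners were not called: Dnajb1, which activates the ATPase of Hsp70, differed by 0.24 (adjusted p = 0.0864) and Dnaja1 by 0.17 (adjusted p = 0.163). Hsph1, the exchange factor of the Hsp110 family, differed by 0.13 (adjusted p = 0.583), Hspb1 by 0.22 (adjusted p = 0.478), Hspe1 by 0.04 and Hspd1 by -0.01. In the fit restricted to the 1 h groups the adjusted p was 0.0546 for Hspa1a, 0.0626 for Bag3 and 0.079 for the Hspa8 probe set.

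The kidney increase was also looked at within each oral vehicle, and whether it differed between them was not tested. After water, Hspa1a was 10.29, 10.31, 10.24 and 10.58 in oxaliplatin rats and 9.42, 9.20, 9.77 and 9.62 in D5W rats. The groups did not overlap, and the difference was 0.85 (adjusted p = 0.0378). After F68, Hspa1a was 10.84, 9.77, 11.45 and 9.99 in oxaliplatin rats and 9.37, 9.94, 9.80 and 10.23 in D5W rats. Here the groups overlapped because 2 of the 4 oxaliplatin rats were near the D5W level, and the difference of 0.68 was not called (adjusted p = 0.17). At 6 h the kidney difference of Hspa1a was 0.07 and at 24 h 0.04.

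**Figure D3:**
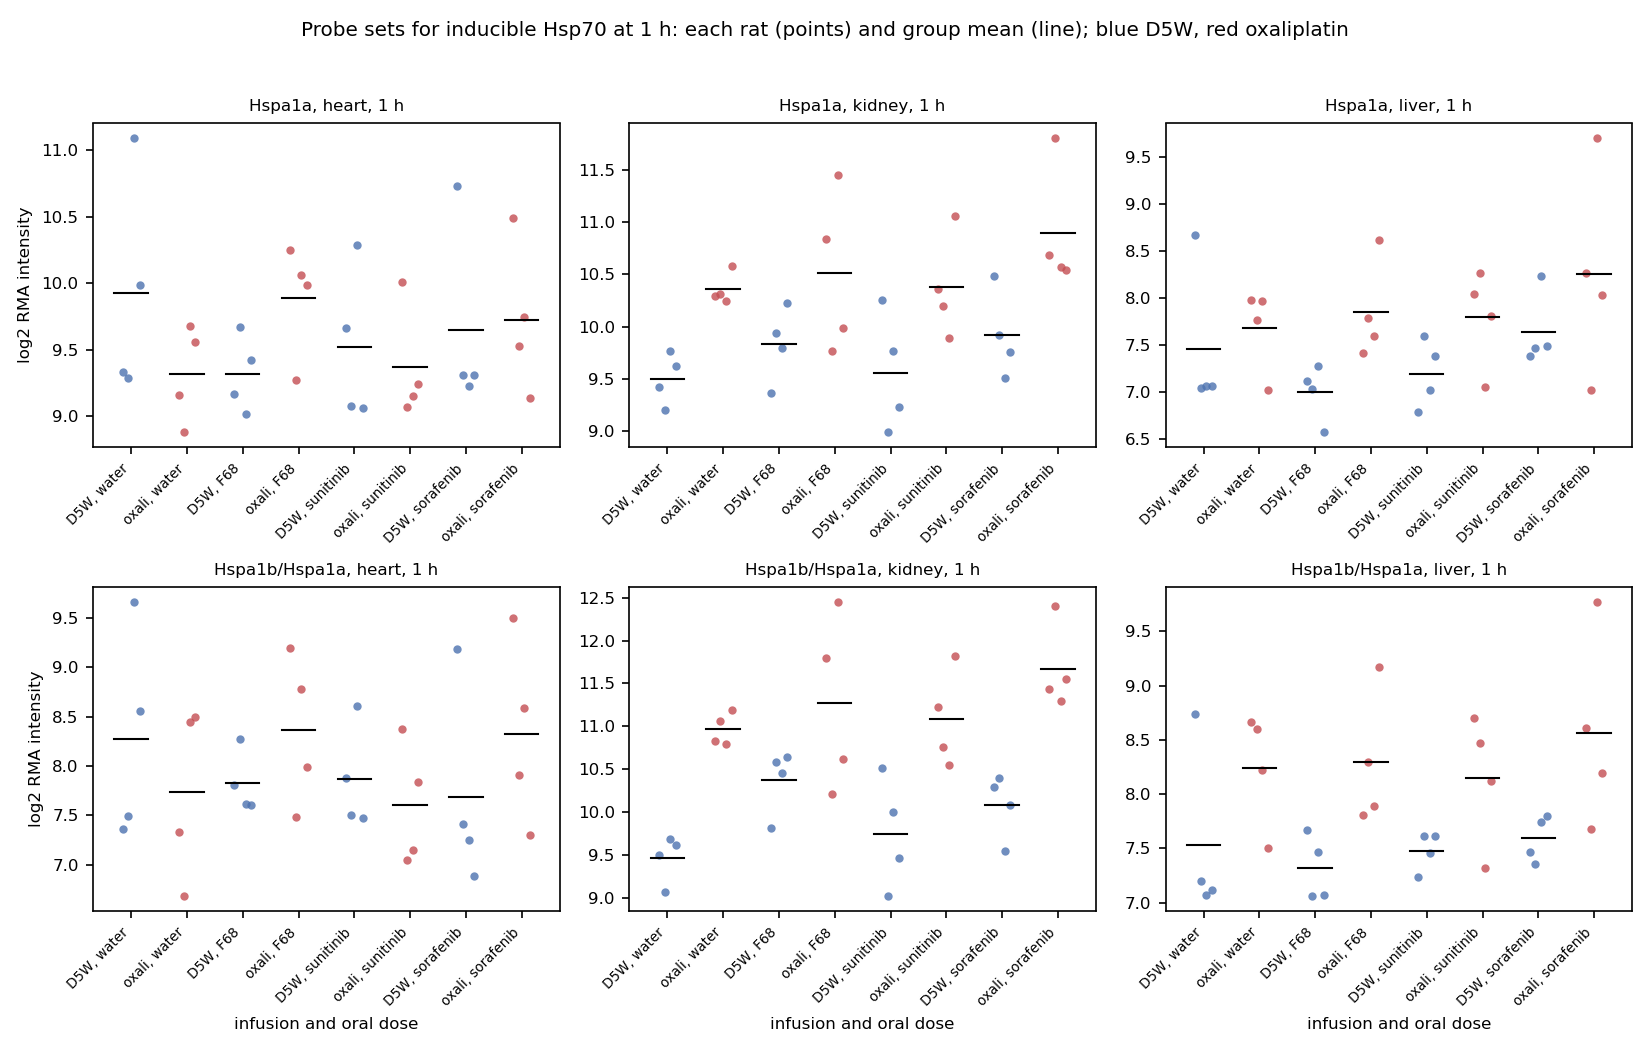
Log2 signal of Hspa1a and of the shared Hspa1b and Hspa1a probe set at 1 h in each rat (points) and group (line at the mean), for the 8 dose groups in heart, kidney and liver, D5W in blue and oxaliplatin in red. In kidney after water the 4 oxaliplatin rats sit between 10.24 and 10.58 and the 4 D5W rats between 9.20 and 9.77 for Hspa1a.

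Hspa1a was also higher in kidney at 1 h in the rats given oxaliplatin and then a kinase inhibitor. Against D5W then water, 12.8% of all genes were called after oxaliplatin then sunitinib, and 4 of the 8 genes were (3 higher, 1 lower). Hspa1a was 10.36, 10.20, 9.89 and 11.06, all above the 4 D5W then water rats (0.87, 1.83-fold, adjusted p = 0.0132). The call was lost without D5W then water replicate 2 (0.77, adjusted p = 0.0577) or oxaliplatin then sunitinib replicate 4 (0.64, adjusted p = 0.0748). The shared Hspa1b and Hspa1a probe set was 11.22, 10.76, 10.55 and 11.82 against 9.50, 9.07, 9.69 and 9.62. These groups were well apart (1.62, SE 0.33, 3.07-fold, adjusted p = 0.00025).

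Bag3 was 11.61, 10.91, 11.08 and 11.40 after oxaliplatin then sunitinib and 10.82, 10.89, 10.75 and 10.56 after D5W then water. The groups did not overlap (0.50, adjusted p = 0.00308), and without oxaliplatin then sunitinib replicate 1 the difference was 0.38 (adjusted p = 0.0727). Dnajb1 was 11.61, 11.09, 10.81 and 11.63 against 11.01, 10.76, 10.77 and 10.88. The groups overlapped, the difference was 0.43 (adjusted p = 0.017), and leaving out any of 4 rats ended the call. These were oxaliplatin then sunitinib replicate 1 (0.32, adjusted p = 0.197) or 4 (0.32, adjusted p = 0.0863) and D5W then water replicate 2 (0.40, adjusted p = 0.0553) or 3 (0.40, adjusted p = 0.0532). Hspd1 was the gene called lower, by -0.52 (adjusted p = 0.0156), and it rested on replicate 1, the array with the kidney median of 7.81. That array read 11.81 for Hspd1 and the other 3 read 13.83, 13.89 and 13.97, so that without it the difference was 0.01 (adjusted p = 0.972).

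After oxaliplatin then sorafenib, against D5W then F68, 2.35% of all genes were called and 1 of the 8 genes was. Hspa1a was 10.68, 11.80, 10.57 and 10.54, all above the 4 D5W then F68 rats (1.06, 2.09-fold, adjusted p = 0.00764). The call was lost without D5W then F68 replicate 1 (0.91, adjusted p = 0.0657) or oxaliplatin then sorafenib replicate 2, the highest rat (0.76, adjusted p = 0.132). The shared Hspa1b and Hspa1a probe set rose by 1.30 (2.46-fold, adjusted p = 0.0131), a call that ended without the same rats (1.11 with adjusted p = 0.0907, and 1.05 with adjusted p = 0.116). The second drug was also compared with its vehicle after oxaliplatin. Sunitinib against water after oxaliplatin gave 0.02 for Hspa1a (95% interval -0.48 to 0.53) and sorafenib against F68 after oxaliplatin gave 0.39 (-0.12 to 0.89), neither called. Without oxaliplatin, Hspa1a in kidney at 1 h was 10.25, 8.99, 9.77 and 9.23 after sunitinib and 10.48, 9.92, 9.51 and 9.76 after sorafenib.

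Other members of the Hsp70 system moved in kidney at 1 h in the pooled comparison of oxaliplatin with D5W. Of 19 other Hsp70 co-chaperones and family members tested, 4 rose and none fell, where 9.42% of all genes were called in either direction. Among the 4 were Dnajb4 (0.42, adjusted p = 1.76e-08), a DnaJ protein close to Dnajb1, and Bag2 (0.28, adjusted p = 0.0286), an exchange factor. The median of the 19 was 0.04 against -0.02 over all genes. At the same comparison 0 of 9 kidney markers were higher and 2 lower, and none of 7 macrophage markers was called.

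At 6 h in kidney, where 20.6% of all genes were called for oxaliplatin, Bag3 was the called gene of the 8. It ranged from 10.63 through 10.95 to 11.22 with oxaliplatin and from 10.13 through 10.67 to 10.99 with D5W. The groups overlapped (0.28, SE 0.09, adjusted p = 0.0111), and without D5W then F68 replicate 3, the lowest rat, the difference was 0.22 (adjusted p = 0.061). It was 0.51 after F68 (adjusted p = 0.00255) and 0.06 after water (adjusted p = 0.87), and whether the effect differed between the oral vehicles was not tested. Hsp90aa1 probe set A was higher by 0.27 (SE 0.06, adjusted p = 0.000538), from 13.02 through 13.42 to 13.54 against 12.96 through 13.07 to 13.47. Hsp90 is the chaperone of kinases and steroid receptors. Of 11 other genes for Hsp90 and its co-chaperones 4 rose, among them Ptges3 (0.15) and Stip1 (0.16), which links Hsp70 to Hsp90. Of the 8 subunits of TRiC, the cytosolic folding chamber for actin and tubulin, 5 rose, among them Cct6a (0.17) and Tcp1 (0.17), with a median of 0.12 against 0.01 over all genes. Of 5 other small heat shock proteins 2 rose, Hspb8 (0.34, adjusted p = 0.0168), the partner of Bag3, and Cryab (0.35, adjusted p = 0.0495). At 24 h, where 7.8% of all genes were called, none of the 8 genes was by limma, nor was any at an unadjusted p under 0.05.

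In liver at 1 h, where 3.48% of all genes were called for oxaliplatin, none of the 8 genes was by limma, with 3 at an unadjusted p under 0.05, all higher. Hspa1a differed by 0.54 (adjusted p = 0.156). The shared Hspa1b and Hspa1a probe set was higher, from 7.50 through 8.26 to 9.17 with oxaliplatin and from 7.06 through 7.16 to 8.74 with D5W. The overlap came from D5W then water replicate 1, at 8.74 where the other 3 rats of its group were at 7.07 to 7.20. The difference was 0.85 (SE 0.22, 1.8-fold, adjusted p = 0.0159), and it was not called without D5W then water replicate 3 (0.77, adjusted p = 0.0576) or oxaliplatin then F68 replicate 4 (0.70, adjusted p = 0.0721).

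After oxaliplatin then sorafenib at 1 h in liver, 2% of all genes were called and Hspa1a was the called gene of the 8. It was 8.26, 7.02, 9.70 and 8.03 against 7.12, 7.03, 7.28 and 6.57 after D5W then F68. 3 of the 4 dosed rats were above every control and 1 was among them. The difference was 1.25 (SE 0.29, 2.38-fold, adjusted p = 0.0141). Without oxaliplatin then sorafenib replicate 3 it was 0.77 (adjusted p = 0.139), and without D5W then F68 replicate 4 it was 1.11 (adjusted p = 0.0572).

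At 6 h in liver, where 10.4% of all genes were called for oxaliplatin, none of the 8 genes was by limma (1 at an unadjusted p under 0.05), and Hsp90aa1 probe set A was higher by 0.30 (adjusted p = 0.0225). That call ended without D5W then F68 replicate 2, D5W then water replicate 4 or oxaliplatin then water replicate 3 (0.26 to 0.28, adjusted p up to 0.0778). Of the 8 TRiC subunits 3 rose, Tcp1 (0.24), Cct3 (0.21) and Cct6a (0.21).

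At 24 h in liver, where 6.41% of all genes were called for oxaliplatin, Hspb1 was the called gene of the 8. It ranged from 7.33 through 8.06 to 8.88 with oxaliplatin and from 6.71 through 7.21 to 8.07 with D5W. The difference was 0.70 (SE 0.21, 1.62-fold, adjusted p = 0.0319), and leaving out any of 7 of the 16 rats ended the call (0.62 to 0.64, adjusted p up to 0.0861). These were oxaliplatin then water replicates 2 and 4, oxaliplatin then F68 replicates 1 and 4, D5W then water replicate 1 and D5W then F68 replicates 2 and 3. After water the rats were at 8.20, 8.74, 7.67 and 8.88 with oxaliplatin and at 6.71, 7.20, 7.15 and 7.35 with D5W. These groups did not overlap (1.27, 2.41-fold, adjusted p = 0.0142). After F68 they were at 8.07, 7.33, 7.34 and 8.06 against 7.85, 7.13, 7.23 and 8.07, with no separation (0.13, adjusted p = 0.854). Whether the oxaliplatin effect on Hspb1 differed between the oral vehicles was not tested. Beside this, 6 of 8 macrophage markers were lower with oxaliplatin (median -0.46) and 3 of 3 erythroid markers were lower (median -1.02), and their part in the result was not tested. In heart, none of the 8 genes was called for oxaliplatin by limma at 1 h (1.23% of all genes called), 6 h (0.866%) or 24 h (19.2%), and 1 of the 24 tests had an unadjusted p under 0.05.

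The next question was what the kinase inhibitors did without oxaliplatin, and sorafenib in liver at 24 h gave the most called members. Of the 8 genes, 6 were lower and none higher as deposited (Hspe1 and Hspd1 changed sign when arrays were centred), and 67.3% of all genes were called in this comparison. The median difference of the 8 was -0.43 against -0.24 over all genes, so a shift common to all genes lay under these values. There were 3 sorafenib rats after the array with kidney markers was set aside, against 4 F68 rats. Each array centred on its own median brought the median of all genes to 0.04, and the calls over all genes went from 2218 higher and 5607 lower to 3968 higher and 2871 lower. The values without and with this centring are therefore both given.

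Hsph1 was 9.98, 9.29 and 10.29 after sorafenib and 10.99, 10.43, 10.47 and 10.86 after F68. The groups did not overlap, and the difference was -0.84 (SE 0.20, 1.79-fold lower, adjusted p = 0.000236), or -0.55 when centred (adjusted p = 0.0149). Dnajb1 was 9.63, 9.44 and 10.31 against 10.96, 9.94, 10.48 and 10.92. The highest sorafenib rat lay above the lowest F68 rat, and the difference was -0.78 (SE 0.17, 1.72-fold lower, adjusted p = 6.21e-05), or -0.50 when centred (adjusted p = 0.00903). Dnaja1, the other DnaJ protein of the list, which works with Hspa8 in the cytosol, was 11.92, 11.94 and 12.20 against 12.74, 12.53, 12.60 and 12.73. These groups were apart (-0.63, SE 0.09, 1.55-fold lower, adjusted p = 1.89e-08), also when centred (-0.35, adjusted p = 0.00109).

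Hsp90aa1 probe set B had the largest difference of the 12 probe sets. It was 11.17, 10.76 and 11.55 after sorafenib and 12.49, 12.19, 12.16 and 12.57 after F68, with no overlap (-1.19, SE 0.18, 2.29-fold lower, adjusted p = 3.04e-08). Centred, the difference was -0.91 (adjusted p = 7.08e-06). Hsp90aa1 probe set A was lower as well (-0.68, adjusted p = 2.47e-05, and -0.40 with adjusted p = 0.0118 when centred).

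The remaining calls ended when arrays were centred. Hspb1 was 7.07, 6.83 and 6.70 against 7.85, 7.13, 7.23 and 8.07 (-0.71, SE 0.32, adjusted p = 0.0479). These groups did not overlap, yet the call ended without F68 replicate 1 or 4 or sorafenib replicate 3 or 4 (-0.54 to -0.69, adjusted p up to 0.161) and when centred (-0.42, adjusted p = 0.262), though not after quantile normalization (-0.74, adjusted p = 0.0471). The mitochondrial pair fell by less: Hspe1 differed by -0.19 (adjusted p = 0.00763) and Hspd1 by -0.23 (adjusted p = 0.000508), and when centred they were at 0.09 and 0.05, the opposite sign. Hspe1 was also lost without sorafenib replicate 3 (-0.10, adjusted p = 0.234). The genes not called were Hspa1a (0.13, adjusted p = 0.724) and Bag3 (-0.23, adjusted p = 0.277). The Hspa8 probe set (-0.21, adjusted p = 0.118) and the shared Hspa1b and Hspa1a probe set (-0.63, adjusted p = 0.095) were not called either. Quantile normalization within the liver ended the calls of Hsph1 (-0.44, adjusted p = 0.0549), Hspe1 (-0.03, adjusted p = 0.667) and Hspd1 (-0.06, adjusted p = 0.363). It left Dnajb1 at -0.38 (adjusted p = 0.0478) and Dnaja1 at -0.36 (adjusted p = 0.000723).

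The sorafenib group stood apart from the rest of the liver in other values too. Its actin 3′ minus 5′ probe difference, a measure of RNA integrity, was 0.64 to 0.76 on the log2 scale against 0.77 to 0.85 in the F68 group. All 8 macrophage markers were lower (5 when centred, 3 after quantile normalization), with their median at 9.84 to 10.06 against 10.63 to 10.90. Of 6 endothelial markers 4 were lower, with their median at 7.92 to 8.24 against 8.59 to 8.82, and of 10 hepatocyte markers 1 was higher (9 when centred) and none lower. Markers foreign to liver had higher group medians than after F68, at 5.73 against 5.37 for heart and 6.55 against 6.07 for kidney. Lymphocyte markers were at 6.37 against 5.94. Erythroid (9.38 against 9.96), neutrophil (5.94 against 6.15) and fibroblast markers (8.04 against 8.67) had lower group medians. With the actin difference as a covariate Hspb1 was not called (-0.61, adjusted p = 0.118) and the Hspa8 probe set was (-0.29, adjusted p = 0.0377). Hsph1 (-0.95), Dnajb1 (-0.88), Dnaja1 (-0.70), Hspe1 (-0.21) and Hspd1 (-0.25) stayed called in that fit. The part of the markers in the values of the chaperones, called or not, was not tested.

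Several other chaperone machines were also lower in this liver comparison, to an extent that depended on the scaling. Of all genes 48.2% were called lower as deposited, 24.7% when centred and 28.3% after quantile normalization. All 8 subunits of TRiC were lower (median -0.58, against -0.24 over all genes), 6 of them also when centred (median -0.29, against 0.04) and 6 after quantile normalization. Cct7 was at -0.58 (adjusted p = 1.94e-12) and Cct2 at -0.74, or -0.30 and -0.46 when centred. Of 18 other Hsp70 family members and co-chaperones 12 were lower, 10 when centred and 10 after quantile normalization, among them Bag1 (-0.69, or -0.41 when centred), an exchange factor, and Dnaja2 (-0.65, or -0.37). Hsp90 and its co-chaperones were 7 of 11 lower and none higher as deposited, but 4 lower and 2 higher when centred, and 3 lower and 4 higher after quantile normalization. The cyclophilin Ppid was at -0.72 (-0.44 when centred), and Ahsa1, which activates the Hsp90 ATPase, at -0.49 (-0.21 when centred). Of 7 mitochondrial chaperones and proteases 5 were lower as deposited, but 1 was lower and 1 higher when centred. Hspa9, the mitochondrial Hsp70, was at -0.42 and at -0.14 (adjusted p = 0.0524) when centred. Of 4 other small heat shock proteins none was lower under any of the 3 scalings. Hspb7 was higher as deposited (0.38, adjusted p = 0.000299) and when centred (0.66), and Cryab (0.27, adjusted p = 0.0385) and Hspb6 (0.46, adjusted p = 0.0156) were called higher when centred. Among the heat shock factors, Hsf1 was not called as deposited (0.11, adjusted p = 0.29) but was higher when centred (0.39, adjusted p = 0.000383) and after quantile normalization (0.26, adjusted p = 0.0219). Hsf4 was higher under each scaling (0.46 as deposited), and Hsf2 was lower as deposited (-0.56) and not called after quantile normalization (-0.15, adjusted p = 0.209).

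**Figure D4:**
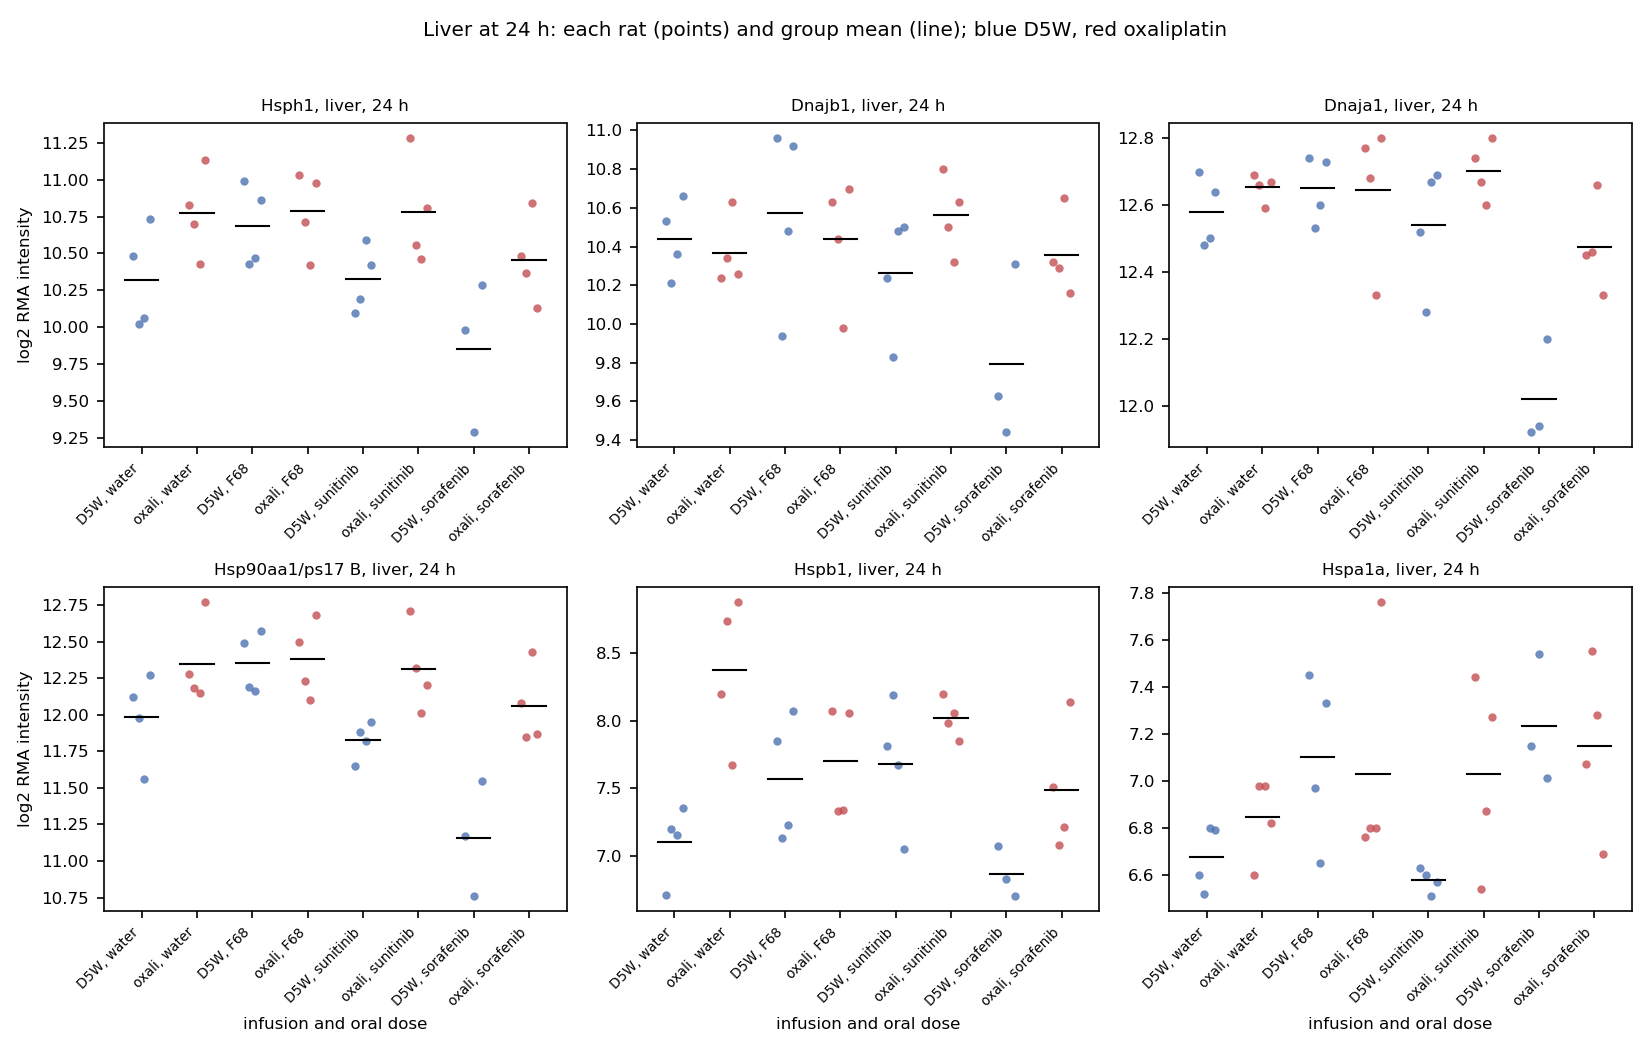
Log2 signal of Hsph1, Dnajb1, Dnaja1, Hsp90aa1 probe set B, Hspb1 and Hspa1a in liver at 24 h, in each rat (points) and group (line at the mean), for the 8 dose groups. The D5W then sorafenib group holds 3 rats. For Dnaja1 these sit between 11.92 and 12.20, below the 4 F68 rats at 12.53 to 12.74.

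After oxaliplatin the same sorafenib dose gave no called gene of the 8 in liver at 24 h, where 1.38% of all genes were called, and none had an unadjusted p under 0.05 by limma. Hsph1 was 10.48, 10.37, 10.84 and 10.13 and differed from oxaliplatin then F68 by -0.33 (95% interval -0.70 to 0.05). Dnajb1 differed by -0.08 (-0.40 to 0.23) and Dnaja1 by -0.17 (-0.34 to 0.00). The difference of the sorafenib effects, after oxaliplatin minus after D5W, was itself called for 3 of the 8 genes, where 38.2% of all genes were called and the median of all genes was 0.17. It was 0.46 for Dnaja1 (adjusted p = 0.00307), 0.69 for Dnajb1 (adjusted p = 0.0155) and 0.23 for Hspd1 (adjusted p = 0.0214). With centred arrays it was 0.26 for Dnaja1 (adjusted p = 0.124), and none of the 3 stayed called. Hsp90aa1 probe set B differed by 0.87 (adjusted p = 0.00381). The Dnajb1 call ended without D5W then F68 replicate 1, D5W then sorafenib replicate 2 or 3, oxaliplatin then F68 replicate 3 or oxaliplatin then sorafenib replicate 3 (0.52 to 0.61, adjusted p up to 0.105), and no rat's omission ended that of Dnaja1.

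In heart, Dnajb1 was lower after sorafenib at 1 h, when 12.2% of all genes were called. It was 9.03, 9.22, 9.32 and 9.12 after sorafenib and 9.52, 9.65, 9.66 and 9.48 after F68. The groups did not overlap (-0.41, SE 0.13, 1.32-fold lower, adjusted p = 0.0251). The call ended without sorafenib replicate 1 or 4 or F68 replicate 2 or 3 (-0.36 to -0.39, adjusted p up to 0.0876), with centred arrays (-0.33, adjusted p = 0.086) and with quantile normalization (-0.32, adjusted p = 0.135). After oxaliplatin Dnajb1 was 10.15, 9.36, 9.84 and 9.40 with sorafenib and 9.49, 9.21, 9.68 and 9.42 with F68. The sorafenib effects differed by 0.64 (adjusted p = 0.0215, where 5.57% of all genes were called), which was lost without oxaliplatin then sorafenib replicate 1 or 3, oxaliplatin then F68 replicate 2 or D5W then F68 replicate 3 (0.49 to 0.61).

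Heart at 6 and 24 h gave 1 call each for sorafenib among the 8 genes, and a shared probe set that moved the other way at 6 h. At 6 h, with 41.9% of all genes called, Hspb1 was 11.91, 11.97, 11.99 and 11.80 after sorafenib and 12.06, 13.07, 12.12 and 12.21 after F68 (-0.45, adjusted p = 0.0117). The groups did not overlap, but without F68 replicate 2, at 13.07, the difference was -0.21 (adjusted p = 0.252). Hsp90aa1 probe set B was 11.99, 12.02, 12.22 and 12.19 after sorafenib and 11.16, 12.09, 11.22 and 11.27 after F68. It was higher with sorafenib, with the same F68 rat among the sorafenib rats (0.67, SE 0.13, 1.59-fold, adjusted p = 2.48e-05). The Hspa8 probe set was lower by -0.12 (adjusted p = 0.0469), a call that ended without any of 5 rats, F68 replicates 2 and 4 and sorafenib replicates 1, 2 and 4 (-0.08 to -0.13). The hearts of the sorafenib group had actin 3′ minus 5′ differences of 0.49 to 0.77 against 0.20 to 0.33, and 5 of 6 fibroblast markers were higher, with their median at 11.87 to 12.23 against 11.28 to 11.65. Of 8 macrophage markers 4 were lower, with a group median of 8.71 against 9.15. Refits of these calls with the actin difference as a covariate are among those counted in the last section, and their values are not given here. The part of the fibroblast and macrophage markers in the results was not tested. At 24 h, with 7.05% called, Dnajb1 differed by -0.38 (adjusted p = 0.047), and leaving out any of the 8 rats but F68 replicate 2 ended that call (-0.27 to -0.44, adjusted p up to 0.232). Of 8 macrophage markers 5 were lower, with their median at 7.58 to 8.43 against 8.81 to 9.41, and their part in this was not tested. In kidney none of the 8 genes was called for sorafenib after D5W in 24 tests by limma, with 1 at an unadjusted p under 0.05, and 0% (1 h), 0.0731% (6 h) and 0.203% (24 h) of all genes were called.

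Sunitinib gave no called gene of the 8. In liver at 24 h the sunitinib difference of Hsph1 was 0.00 (95% interval -0.37 to 0.38). The Hsp90aa1 probe sets disagreed in heart at 24 h. On probe set B the D5W then water rats were at 11.98, 12.01, 12.00 and 11.89 and the sunitinib rats at 11.26, 11.29, 11.29 and 11.32, with no overlap (-0.68, adjusted p = 3.63e-05), and probe set A was not called. The D5W then water hearts at 24 h had actin 3′ minus 5′ differences of 0.71 to 0.81, with a group median of 0.75 where the other heart groups at 24 h had medians of 0.24 to 0.47. A refit of this call with the actin difference as a covariate is among those counted in the last section, and its value is not given here.

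Among the vehicle rats (D5W then water or F68) several chaperones were lower in heart at 6 h than at 1 h. Of the 8 genes 6 were lower, where 36.8% of all genes were called, and their median difference was -0.38 against -0.05 over all genes. Hspa1a ranged from 8.25 through 8.62 to 10.07 at 6 h and from 9.02 through 9.37 to 11.09 at 1 h. The times overlapped through the highest rat at 6 h (-0.82, SE 0.19, 1.77-fold lower, adjusted p = 0.000536). Dnajb1 ranged from 8.81 through 8.90 to 9.14 at 6 h and from 9.42 through 9.52 to 9.66 at 1 h. All 8 rats at 6 h were below all 8 at 1 h (-0.59, SE 0.09, 1.51-fold lower, adjusted p = 3.65e-07). Dnaja1 was likewise without overlap, from 10.58 through 10.67 to 10.94 against 11.07 through 11.20 to 11.46 (-0.53, SE 0.09, 1.45-fold lower, adjusted p = 5.04e-06).

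Hsph1 ranged from 9.42 through 9.69 to 10.48 at 6 h and from 9.97 through 10.12 to 10.31 at 1 h, with the highest rat of all at 6 h (-0.40, adjusted p = 0.000921). Hspb1 differed by -0.36 (adjusted p = 0.00423) and Hspe1 by -0.12 (adjusted p = 0.0016), the last not called once arrays were centred (-0.06, adjusted p = 0.183). Bag3 (-0.04, adjusted p = 0.624) and Hspd1 (0.02, adjusted p = 0.636) were not called, although Hspd1 passed as higher with centred arrays (0.08, adjusted p = 0.035). The shared Hspa1b and Hspa1a probe set ranged from 6.33 through 6.69 to 7.20 at 6 h and from 7.36 through 7.71 to 9.66 at 1 h. All 8 rats at 6 h were below all 8 at 1 h (-1.31, SE 0.29, 2.48-fold lower, adjusted p = 0.000212). Both Hsp90aa1 probe sets were lower (-0.33 for A, -0.31 for B), and so was the Hspa8 probe set (-0.20). No call of the 6 genes was lost when any 1 of the 16 rats was left out.

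Genes of other chaperone machines were also lower in heart at 6 h, when 27.1% of all genes were called lower (14.5% after quantile normalization). All 8 TRiC subunits were lower (median -0.22), for example Cct5 (-0.29), and 7 of them after quantile normalization. Of 11 genes for Hsp90 and its co-chaperones 9 were lower (5 after quantile normalization), among them Unc45a (-0.26), a chaperone of myosin. Of 17 other Hsp70 family members and co-chaperones 11 were lower (6 after quantile normalization), and none of these lists held a gene called higher under either scaling. Hsf1, the gene of heat shock factor 1, was lower by -0.32, and Hsf4 was higher (0.23). From 6 to 24 h, with 51.8% of all genes called, 2 of the 8 genes rose and 1 fell in heart. Dnajb1 rose by 0.30 (adjusted p = 0.00316), Dnaja1 by 0.24 (adjusted p = 0.0203) and Hspb1 fell by 0.37 (adjusted p = 0.00205). The Dnaja1 rise was lost without D5W then F68 replicate 1 or 4 at 24 h (0.18 in each case). The 24 h rats include the D5W then water hearts, with a median actin 3′ minus 5′ difference of 0.75 against 0.45 after F68. At 6 h these medians were 0.32 after water and 0.27 after F68. Between the oral vehicles at 24 h, 5 of the 8 genes were called.

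In kidney 1 of the 8 genes was called between 6 and 1 h, where 1.98% of all genes were. Dnajb1 ranged from 10.37 through 10.57 to 10.82 at 6 h and from 10.76 through 10.96 to 11.25 at 1 h, nearly apart (-0.39, adjusted p = 0.0106). In liver, where 11.3% of all genes were called, Hspe1 was (-0.12, adjusted p = 0.0445), and leaving out any of 9 of the 16 rats ended the call (-0.10 to -0.13). These were D5W then water replicates 1 and 2 and D5W then F68 replicates 3 and 4 at 1 h, and D5W then water replicates 1 and 4 and D5W then F68 replicates 1, 2 and 3 at 6 h. Whether the change with time differed between tissues was not tested.

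**Figure D5:**
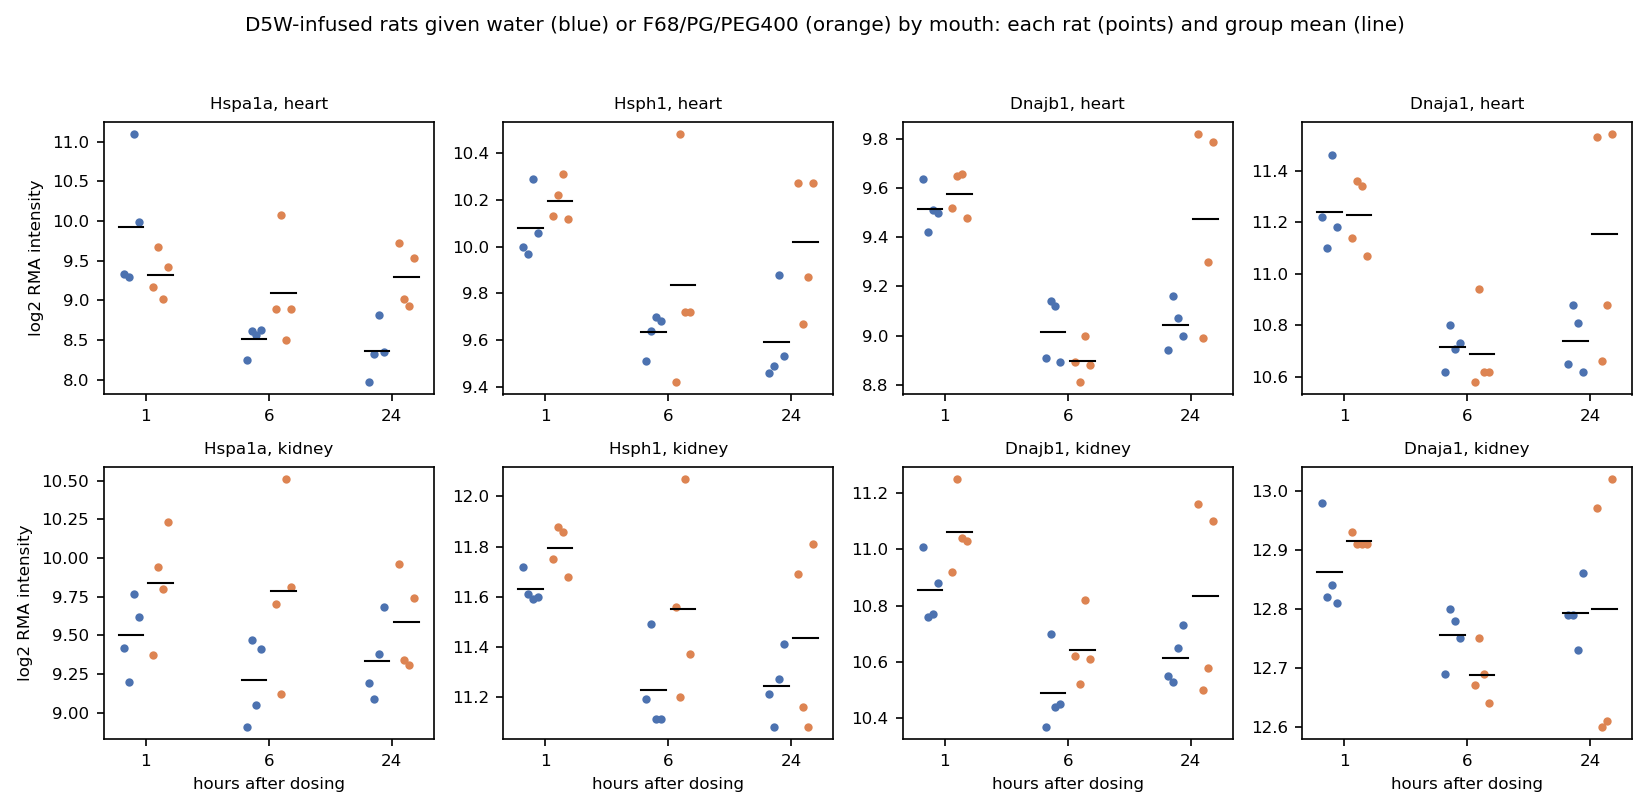
Log2 signal of Hspa1a, Hsph1, Dnajb1 and Dnaja1 at 1, 6 and 24 h in heart and kidney of the D5W rats (points, water in blue and F68 in orange). In heart all 8 rats at 6 h lie below all 8 at 1 h for Dnajb1 and for Dnaja1.

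The oral vehicles could also be compared after D5W, with dosing day in the same contrast. Of 72 tests 6 were called, all in heart, 5 higher after F68 at 24 h and 1 lower at 1 h. The lower one was Hspb1, where 11.6% of all genes were called, at 12.52, 12.67, 12.41 and 12.22 after F68 and 12.51, 12.70, 13.34 and 12.99 after water. The groups overlapped (-0.43, adjusted p = 0.0427), and the call ended without F68 replicate 1, 3 or 4 or water replicate 3 or 4 (-0.28 to -0.45). The difference was -0.28 (adjusted p = 0.284) without water replicate 3, the highest rat. In heart at 24 h, where 16.8% of all genes were called, 5 of the 8 genes were higher after F68 than after water, with a median difference of 0.41 against 0.05 over all genes. Hspa1a was 9.72, 9.02, 8.93 and 9.53 after F68 and 7.97, 8.32, 8.81 and 8.35 after water. The groups did not overlap (0.94, SE 0.27, 1.92-fold, adjusted p = 0.00928), and the call ended without F68 replicate 1 (0.80, adjusted p = 0.0533) or water replicate 1 (0.81, adjusted p = 0.056). Dnajb1 was 9.82, 8.99, 9.30 and 9.79 after F68 and lay between 8.94 and 9.16 in the 4 water rats. Here 2 F68 rats stood high and 1 lay within the water rats (0.43, adjusted p = 0.00946). Without F68 replicate 1 the difference was 0.32 (adjusted p = 0.099) and without replicate 4 it was 0.33 (adjusted p = 0.0905).

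Hsph1 was 10.27, 9.67, 9.87 and 10.27 after F68 and 9.46, 9.49, 9.88 and 9.53 after water (0.43, adjusted p = 0.0242). Dnaja1 was 11.53, 10.66, 10.88 and 11.54 against 10.65, 10.88, 10.81 and 10.62 (0.41, adjusted p = 0.0176). In both, F68 replicates 1 and 4 were the high rats and the groups overlapped, and both calls ended without F68 replicate 1 or 4 or water replicate 1 or 4 (0.34 to 0.41 for Hsph1, 0.28 to 0.38 for Dnaja1), that of Hsph1 also without water replicate 2 (0.39). Hspb1 differed by 0.40 (adjusted p = 0.0487), opposite in sign to 1 h, lost without any of the 8 rats but F68 replicate 2 and water replicate 3 (0.36 to 0.41). The shared Hspa1b and Hspa1a probe set was higher by 1.30 (2.47-fold, adjusted p = 0.0162), which became 0.84 (adjusted p = 0.184) without F68 replicate 1 and 1.06 (adjusted p = 0.0937) without replicate 4. The water hearts had actin 3′ minus 5′ differences of 0.71 to 0.81 against 0.40 to 0.50 after F68, and 3 of 6 fibroblast markers were lower after F68, with their median at 11.62 to 11.79 against 11.99 to 12.24. Liver markers, foreign to heart, had a group median of 6.94 after F68 and 6.28 after water. In the other heart groups at 24 h it was 5.56 to 5.76, and the part of these markers was not tested. With the actin difference as a covariate none of the 8 genes was called, and Hspa1a was at 0.73 (adjusted p = 0.189). After oxaliplatin, where 0.0353% of all genes were called between the oral vehicles, none of the 8 was by limma (1 at an unadjusted p under 0.05).

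The same water group was the control for oxaliplatin then sunitinib in heart at 24 h, where 24.5% of all genes were called and 3 of the 8 genes were higher. These were Hspa1a (0.72, adjusted p = 0.0434, at 8.89, 9.01, 9.06 and 9.36), Hsph1 (0.38, adjusted p = 0.0367) and Dnaja1 (0.34, adjusted p = 0.0427). With the actin covariate their adjusted p was 0.273, 0.245 and 0.26. Each call also ended without water replicate 1 or 4 or oxaliplatin then sunitinib replicate 3 or 4, that of Hspa1a without water replicate 2 or oxaliplatin then sunitinib replicate 2, that of Hsph1 without water replicate 2 and that of Dnaja1 without water replicate 3. The differences were then 0.59 to 0.74 for Hspa1a, 0.33 to 0.36 for Hsph1 and 0.27 to 0.37 for Dnaja1.

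The effects were last compared between tissues, with the 3 arrays of a rat treated as independent. For oxaliplatin at 1 h the Hspa1a difference in kidney minus that in heart was 0.78 (adjusted p = 0.15, where 1.79% of all genes were called), and kidney minus liver was 0.22 (adjusted p = 0.96). The increase of Hspa1a in kidney was thus not shown to differ from that in either tissue. For sorafenib at 24 h the differences were called for Hsph1 (kidney minus liver 0.75, adjusted p = 0.00831, and liver minus heart -0.64, adjusted p = 0.0215), Dnajb1 (kidney minus liver 0.59, adjusted p = 0.0144) and Dnaja1 (kidney minus liver 0.65, adjusted p = 0.000522). The liver effect held the shift common to all genes, and with centred arrays Dnaja1 alone of these stayed called (0.42, adjusted p = 0.0412), while after quantile normalization none did (Dnaja1 0.38, adjusted p = 0.0627). In these comparisons 52.9% (kidney minus liver) and 47.6% (liver minus heart) of all genes were called. For Bag3, oxaliplatin at 24 h differed between kidney and liver by 0.40 (adjusted p = 0.0418, with 7.37% of all genes called).

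The members varied together to differing degrees over the 24 group means of a tissue, given here as a description because groups share dosing days and the processing of their arrays. In heart the highest correlation among the 8 genes was between Dnajb1 and Dnaja1 (r = 0.92), and Hspa1a followed Hsph1 (0.87). In kidney Hspa1a followed Dnajb1 (0.91) and Hspb1 (0.91). In liver Hsph1 followed Hspb1 (0.77) and Dnajb1 (0.74), and Hspa1a with Dnaja1 was at 0.02. The mitochondrial partners Hspe1 and Hspd1 gave -0.14 in heart, -0.18 in kidney and 0.69 in liver. The kidney value includes oxaliplatin then sunitinib replicate 1 at 1 h, which read 11.81 for Hspd1 (others 13.83, 13.89 and 13.97). The liver value includes the D5W then sorafenib group at 24 h, where both genes were lower as deposited and not when centred. The genes outside the list most like the mean standardized profile of Hspa1a, Hsph1 and Dnajb1 were P4ha1 (0.91), Banp (0.90) and Atf3 (0.89) in heart, Ddit3 (0.97), Tra2a (0.95) and Dnajb4 (0.94) in kidney, and P4ha1 (0.94), Chordc1 (0.88) and Ets2 (0.86) in liver. P4ha1 is a subunit of the collagen prolyl hydroxylase, Atf3 and Ddit3 are transcription factors of stress responses, and Chordc1 is a co-chaperone of Hsp90.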

How the data were processed

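Heart, kidney and liver RNA of each rat was hybridized to Affymetrix rat genome arrays. The authors made the deposited values with RMA (background correction, quantile normalization, median polish), as log2 signal per probe set; the RMA version, and whether the tissues were normalized together, were not given in the sources used here. Probe sets were named from GEO's platform annotation: 20832 had 1 gene symbol, 436 several and 9831 none.

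Genes over log2 6 on at least 4 arrays of a tissue were tested (11321 in heart, 12314 in kidney, 11623 in liver) in 1 limma model (version 3.58.1, R 4.3.3) per tissue with a mean for each of 24 groups, and p-values were Benjamini-Hochberg adjusted over all genes of a comparison. Oxaliplatin was compared with D5W over both oral vehicles, 8 rats against 8, and so were the times among vehicle rats. Other comparisons had 4 rats per group. The D5W then sorafenib groups at 24 h in liver and kidney held 3 after the excluded arrays. Effects were compared between tissues in 1 model of all 72 groups, which treats the 3 arrays of a rat as independent. The titles end in a code that recurs in the 3 tissues of each of the 24 dose groups. Arrays of 1 code deviated from their group means with a mean correlation of 0.16 to 0.18 between tissues, against -0.06 to -0.05 for other codes of the group, so an alternative blocked the 96 codes as rats. The model was tested on simulated data. The replicates are separate rats. The number of arrays limits the precision.

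The listed genes are always named. Of other genes, up to 3 called per pathway list and comparison with the smallest adjusted p, and the 5 per tissue whose group means most resembled Hspa1a, Hsph1 and Dnajb1, could be named. The members, lists and tests were chosen with earlier results of these data known. Alternatives were other filters, scalings, probe set rules and models, an actin covariate, the excluded arrays restored, and each rat left out. Leaving out the groups that stand apart and blocking by code were chosen after seeing the data.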

Additional observations from a re-analysis of the deposited data

Results flagged for a closer look

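A rat lying far from the other 3 of its group (its gap to the nearest of them above Dixon's critical share of the group's range) was found in 15 of 161 sets of 4 examined, 9.32% where chance gives about 5%. A set was 1 gene or shared probe set in 1 group, taken from the comparisons within a tissue in which it was called. In heart at 6 h after D5W then F68, replicate 2 was the rat apart for 4 probe sets at once. It had Hspb1 at 13.07 (others 12.06 to 12.21), Dnaja1 at 10.94 (10.58 to 10.62), Hsp90aa1 probe set A at 12.76 (12.00 to 12.07) and Hsp90aa1 probe set B at 12.09 (11.16 to 11.27). In heart at 24 h after D5W then water, replicate 3 had Hsph1 at 9.88 (others 9.46 to 9.53) and Hspb1 at 12.03 (11.60 to 11.65). Other heart rats apart were D5W then sorafenib replicate 1 at 1 h, with Hspa1a at 10.73 (others 9.23 to 9.31), and at 24 h replicate 1 with Dnajb1 at 8.89 (9.14 to 9.18) and replicate 4 with Hsp90aa1 probe set B at 11.44 (11.25 in the other 3).

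In kidney at 1 h, oxaliplatin then sorafenib replicate 2 had Hspa1a at 11.80 (others 10.54 to 10.68), oxaliplatin then water replicate 3 had the Hspa8 probe set at 14.29 (14.43 to 14.45), and oxaliplatin then sunitinib replicate 1, the array with a median of 7.81, had Hspd1 at 11.81 (13.83 to 13.97). In kidney at 6 h, oxaliplatin then F68 replicate 4 had Bag3 at 11.22 (others 10.94 to 10.96) and D5W then F68 replicate 3 had Hsp90aa1 probe set A at 13.47 (13.07 to 13.09). In liver at 1 h, D5W then water replicate 1 had the shared Hspa1b and Hspa1a probe set at 8.74 (others 7.07 to 7.20).

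Several drug effects differed between conditions by a test of the difference itself. The sorafenib effect after oxaliplatin minus that after D5W was 0.64 for Dnajb1 in heart at 1 h (adjusted p = 0.0215) and -0.98 for Hsp90aa1 probe set B in heart at 6 h (adjusted p = 3.82e-05). In liver at 24 h it was 0.69 for Dnajb1, 0.46 for Dnaja1, 0.23 for Hspd1, 0.51 for Hsp90aa1 probe set A (adjusted p = 0.0287) and 0.87 for Hsp90aa1 probe set B. Probe set A was at 0.28 (adjusted p = 0.277) without D5W then sorafenib replicate 3, and its call also ended without D5W then F68 replicate 1 or 4, oxaliplatin then F68 replicate 3 or oxaliplatin then sorafenib replicate 3. That of Hspd1 ended without D5W then F68 replicate 1, D5W then sorafenib replicate 2 or 3 or oxaliplatin then sorafenib replicate 1 or 3 (0.18 to 0.21). The sunitinib effect in heart at 24 h differed in the same way by 0.81 for Hsp90aa1 probe set B (adjusted p = 0.00101). The heart values of probe set B use groups with high actin 3′ minus 5′ differences. At 6 h this is D5W then sorafenib (median 0.68, with 0.27 after F68). At 24 h it is D5W then water (median 0.75, with 0.43 after sunitinib). Refits of these values with the actin difference as a covariate are among those counted in the last section and are not given singly.

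Between times, the sorafenib effect in heart at 6 h minus that at 1 h was -0.94 for Hspa1a (adjusted p = 0.046) and 0.62 for Hsp90aa1 probe set B (adjusted p = 0.00534), and that at 24 h minus 6 h was -0.91 for Hsp90aa1 probe set B (adjusted p = 9.05e-05). These values use the D5W then sorafenib hearts at 6 h, named above for their actin difference. The Hspa1a value ended its call without any of 7 of the 16 rats, D5W then F68 replicates 1 and 3 and sorafenib replicate 1 at 1 h, and F68 replicate 2 and sorafenib replicates 2, 3 and 4 at 6 h. It was -0.58 without sorafenib replicate 1 at 1 h and -0.61 without F68 replicate 2 at 6 h. In liver the 24 h minus 6 h change was -0.61 for Dnajb1 (adjusted p = 0.0249), -0.56 for Dnaja1 (adjusted p = 2e-04), -0.50 for Hsp90aa1 probe set A (adjusted p = 0.0248) and -0.84 for Hsp90aa1 probe set B (adjusted p = 0.00318). Probe set A was at -0.27 (adjusted p = 0.264) without sorafenib replicate 3 at 24 h, and its call also ended without F68 replicate 4 at 24 h or, at 6 h, F68 replicate 1 or 2 or sorafenib replicate 1. That of Dnajb1 ended without F68 replicate 1 or 4 or sorafenib replicate 2 or 3 at 24 h or sorafenib replicate 1 at 6 h (-0.43 to -0.53).

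Between tissues, the sorafenib effects at 24 h, kidney minus liver, were 0.75 for Hsph1, 0.59 for Dnajb1, 0.51 for Bag3 (adjusted p = 0.0243), 0.65 for Dnaja1, 0.60 for Hsp90aa1 probe set A (adjusted p = 0.00127) and 1.14 for Hsp90aa1 probe set B (adjusted p = 0.000222). Liver minus heart, they were -0.64 for Hsph1, -0.23 for Hspe1 (adjusted p = 0.00291), -0.50 for Hsp90aa1 probe set A (adjusted p = 0.00558) and -0.95 for Hsp90aa1 probe set B (adjusted p = 0.00158). Calls over all genes reached 52.9% (kidney minus liver) and 47.6% (liver minus heart) in these comparisons. The liver effect held the shift common to all genes. In liver itself Bag3 was not called (-0.23, adjusted p = 0.277, or 0.06 when centred). Hspe1 in liver went from -0.19 to 0.09 when centred. Over all drugs and times, shared probe sets aside, the 9 calls between tissues went to 2 with centred arrays and 1 with quantile normalization. The sorafenib effects at 6 h on Hsp90aa1 probe set B gave -0.75 for kidney minus heart (adjusted p = 0.0358) and -1.02 for liver minus heart (adjusted p = 0.00182). Both use the D5W then sorafenib hearts at 6 h, named above for their actin difference. The oxaliplatin effects at 24 h differed for Bag3 (0.40 for kidney minus liver and -0.39 for liver minus heart, adjusted p = 0.0294), for Hspb1 (0.66 for liver minus heart, adjusted p = 0.0431) and for Hsp90aa1 probe set B (0.52 for liver minus heart, adjusted p = 0.0356). Those with heart use the D5W then water hearts at 24 h, also named above for their actin difference.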

How the results depend on the processing

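Of 98 called differences of the 8 genes and 4 shared probe sets, 1632 of 1931 refits under an alternative kept the direction and the call, 294 lost the call and 5 reversed the sign. A stricter filter lost none, no filter 7, trend and robust variance 3, the mean over probe sets 7, quantile normalization 26, centred arrays 30 and the actin covariate 20. Using only the groups of a time point lost 20 of 58. The sorafenib calls after D5W went from 9 to 5 with quantile normalization, 4 with centred arrays and 2 without the groups that stand apart, an alternative chosen after seeing the data. The 7 calls of oxaliplatin then sunitinib went to 3 with centred arrays and to 4 without the kidney array of low hybridization controls, with the actin covariate, with only the groups of the time point, and without the groups apart. The 4 calls of oxaliplatin's interaction with the second drug went to 1 with quantile normalization, 0 with centred arrays, 2 with the mean over probe sets, 1 with only the groups of the time point and 1 without the groups apart. The 6 calls of F68 against water went to 0 with the actin covariate and 1 without the groups apart. The 3 calls between times went to 0 without the groups apart. The 9 calls between tissues went to 1 with quantile normalization, 2 with centred arrays, 4 with all arrays as labelled and 1 without the groups apart. The causes were not tested. Reversed were Hspe1 (0.09 centred, 0.04 with all arrays as labelled) and Hspd1 (0.05 centred) in liver 24 h after sorafenib, and Hspd1 in kidney 1 h after oxaliplatin then sunitinib (0.01 without the low array; -0.72 to 0.01 over the rats left out). Leaving out 1 rat gave 3 to 6 calls for oxaliplatin, 0 to 2 for sunitinib and 7 to 10 for sorafenib after D5W, 0 to 2 for sunitinib and 0 to 1 for sorafenib after oxaliplatin, 4 to 8 for oxaliplatin then sunitinib, 1 to 3 for oxaliplatin then sorafenib, 2 to 6 for the interactions, 1 to 8 for F68 against water, 10 to 12 between times among vehicle rats and 2 to 6 for changes of a drug effect between times. With the code shared by the tissues as a replicate block, an alternative chosen after seeing the data, the 9 calls between tissues stayed at 9 and 16 of 16 called differences of genes and shared probe sets kept direction and call (consensus correlation 0.07). Groups held different rats, so no block was fitted between dose groups.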
